A study of Mus musculus with 6 samples.

Results

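ADAM and ADAMTS proteases are metalloprotease families that cut proteins at the cell surface and in the extracellular matrix. The genes described here were the protein-coding genes whose symbol is Adam or Adamts followed by a number. This rule took 53 of 21887 protein-coding genes, and 1035 of 323483 accessible intervals overlapped their gene bodies extended by 20 kb on each side. By known role, 22 were placed as testis-type ADAM genes, 9 as sheddase-type ADAM genes, 3 as neural ADAM genes and 19 as ADAMTS genes.

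The cells were mouse embryonic fibroblasts (strain M2-rtTA x TetO-Myf6), heterozygous for each allele, and their accessible DNA was mapped by ATAC-seq, which marks open sites by transposase cutting. All cells were kept for 24 h in a medium with 10 ng/mL bFGF, and 3 groups had 2 libraries each: medium alone, medium with doxycycline at 2 µg/mL to induce the muscle regulator Myf6, and the same doxycycline dose with F/R/C, that is 5 µM forskolin, 5 µM RepSox and 3 µM CHIR99021. The M2-rtTA transactivator drives the transgene only when doxycycline is present, and the medium group carries both alleles too. Separate cultures are not stated for the replicate libraries. The analysed table was a single joined set of intervals on GRCm38.p6 that holds positions only. An interval shows that a peak was called somewhere in the experiment, and the 3 groups cannot be told apart in it. The depth is unknown, and no value carries a replicate error.

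An ADAM protein spans the membrane and joins a metalloprotease domain to a disintegrin domain. Sheddase-type ADAMs release the outer part of growth factors, receptors and adhesion proteins. Neural ADAMs have lost the active site and act as receptors and adhesion proteins. Many further ADAMs are made mainly in the testis or epididymis, where they serve sperm maturation and fertilisation. ADAMTS proteins lack the membrane anchor, carry thrombospondin repeats and act as secreted proteases on proteoglycans, procollagens and other matrix proteins.

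The classes differed in how many gene starts were accessible. An interval lay within 1 kb of the start in all 9 sheddase-type, all 3 neural and all 19 ADAMTS genes, against 8 of 22 testis-type genes. The share over all protein-coding genes was 72.7%, and 82.0% with olfactory, vomeronasal and predicted genes left out. For the testis-type genes the share was 36.4% (exact 95% Clopper-Pearson interval 17.2 to 59.3%), and the lower bound for the ADAMTS genes was 82.4%, close to the second of those shares. These intervals treat genes as independent draws and carry no replicate error. No test was made between the classes, because the genes are not replicates of a condition and neighbouring members share intervals. The start site came from the RefSeq promoter table for 28 members, and for the other 25 an interval at either gene end was counted as a start interval, so it may lie at the 3′ end. With either end counted for every gene, 9 of 22 testis-type genes had an interval, against 74.7% of all genes. Among the 28 with a known start, 5 of 5 sheddase-type, 2 of 2 neural, 10 of 10 ADAMTS and 1 of 11 testis-type genes had a start interval, against 71.6% of all genes with a known start. With intervals of at least 600 bp only, 7 sheddase-type, 3 neural, 17 ADAMTS and 3 testis-type genes remained, against 64.6% of all genes.

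**Figure D1:**
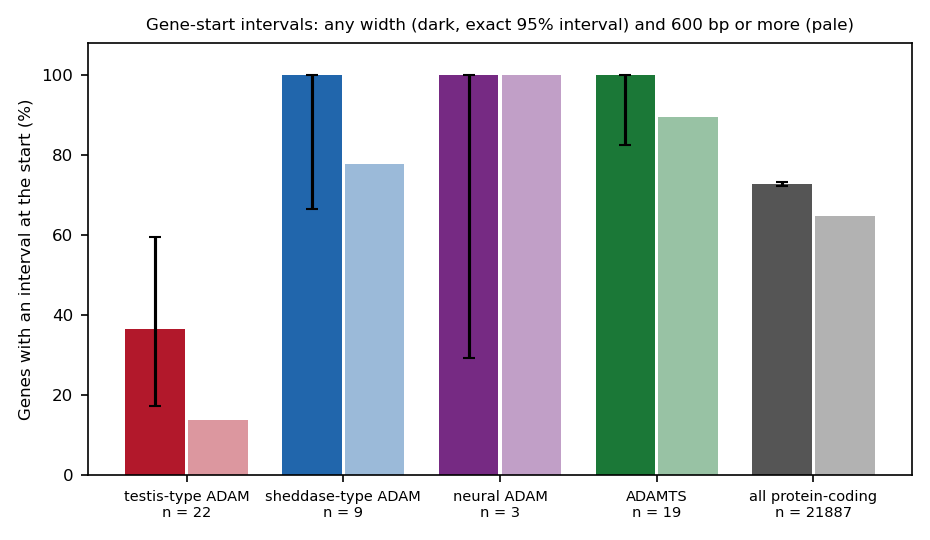
Percent of genes with an interval within 1 kb of the start, for each class and for all protein-coding genes, with dark bars for any width, pale bars for intervals of at least 600 bp and exact 95% intervals on the dark bars. The testis-type bar stands at 36.4% and the bars of the other classes at 100%, with all protein-coding genes at 72.7%.

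The number of intervals around the genes followed the same order at the low end. In the window of gene body and 20 kb flanks, testis-type genes had a median of 3.53 intervals per 100 kb, sheddase-type genes 23.8, neural genes 17.9 and ADAMTS genes 20.0. Protein-coding genes as a whole had a median of 18.2 and quartiles of 9.17 and 25.4. Intervals covered a median of 1.65% of the window in testis-type genes, 11.3% in sheddase-type genes, 8.38% in neural genes and 9.76% in ADAMTS genes, against 9.19% over all genes. The neural median lay above that of all genes with the gene body alone, 20.6 against 18.6. The density exceeded the median of all genes in 3 testis-type, 7 sheddase-type, 1 neural and 12 ADAMTS genes. Every member without an interval in its window belonged to the testis-type class, 8 of 22 genes, and 87.1% of all protein-coding genes had at least 1.

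**Figure D2:**
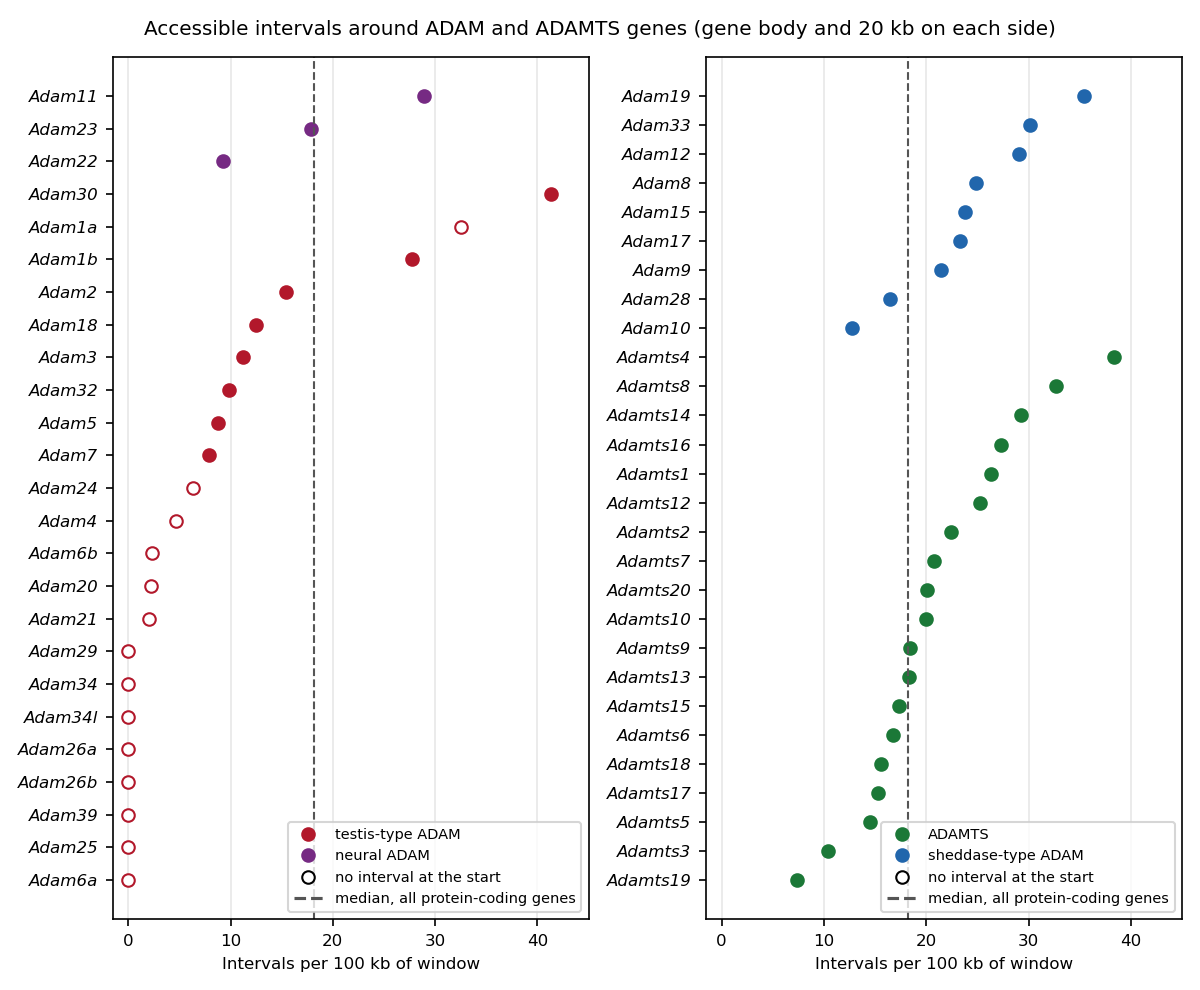
Intervals per 100 kb of window for each of the 53 genes, sorted within its class. Open circles mark genes with no interval at the start, and the dashed line marks the median of all protein-coding genes at 18.2. All open circles are testis-type genes, and 8 of them lie at 0.

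Gene length differed between the classes, with a median of 8.35 kb for testis-type, 50.9 kb for sheddase-type, 150.4 kb for neural and 114.0 kb for ADAMTS genes. Among genes under 10 kb, the 13 testis-type genes had a median of 2.27 intervals per 100 kb, and all 7925 protein-coding genes of that length had 15.9. The 3 testis-type genes of that length above 15.9 were Adam30, Adam1a and Adam1b. Between 10 and 50 kb the values were 3.93 for 4 testis-type genes and 19.7 for all genes. Between 50 and 150 kb, 5 testis-type genes had 9.82 and all genes 18.9. No testis-type gene above 10 kb reached the median of its length band. Of the 9 ADAMTS genes of at least 150 kb, 5 lay above the median of their band, with a class median of 16.8 against 15.6. Over the 53 members the count of intervals rose with gene length, with a Spearman rho of 0.749, against 0.653 over all genes. Length and density had a rho of -0.507 over the 19 ADAMTS genes, against 0.157 over the 53 members and 0.151 over all genes. These values are given as a description over genes that share a single table.

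Promoter sequence is shown for members that mark the extremes of these differences. Each line gives the 250 bases before the start from the RefSeq promoter table (GRCm38.p6), 5′ to 3′ on the strand of the gene, with CpG dinucleotides in capitals. Adam10 (chr9:70678732-70678981, plus strand) and Adam17 (chr12:21373633-21373882, minus strand) are the main sheddases, and Adamts2 (chr11:50601835-50602084, plus strand) had the widest start interval of the members. Adamts13 (chr2:26973166-26973415, plus strand) is a CpG-poor promoter that was covered. Adam20 (chr8:40793023-40793272, plus strand), Adam25 (chr8:40751958-40752207, plus strand) and Adam29 (chr8:55906965-55907214, minus strand) are testis-type promoters with no interval within 1 kb.
Adam10: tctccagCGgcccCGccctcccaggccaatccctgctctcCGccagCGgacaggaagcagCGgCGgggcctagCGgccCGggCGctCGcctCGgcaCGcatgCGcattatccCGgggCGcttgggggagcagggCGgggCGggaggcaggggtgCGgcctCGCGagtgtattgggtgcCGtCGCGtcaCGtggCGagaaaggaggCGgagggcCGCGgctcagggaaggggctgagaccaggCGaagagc
Adam17: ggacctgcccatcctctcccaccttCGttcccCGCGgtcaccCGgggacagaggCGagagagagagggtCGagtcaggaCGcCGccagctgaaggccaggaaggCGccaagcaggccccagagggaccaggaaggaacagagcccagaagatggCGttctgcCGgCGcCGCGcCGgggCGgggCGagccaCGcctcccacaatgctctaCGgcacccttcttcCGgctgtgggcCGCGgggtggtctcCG
Adamts2: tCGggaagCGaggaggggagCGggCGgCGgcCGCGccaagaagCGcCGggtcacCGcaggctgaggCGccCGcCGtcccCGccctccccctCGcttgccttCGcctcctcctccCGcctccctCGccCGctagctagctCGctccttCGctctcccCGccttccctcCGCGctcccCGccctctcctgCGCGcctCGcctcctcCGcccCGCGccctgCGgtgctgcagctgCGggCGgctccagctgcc
Adamts13: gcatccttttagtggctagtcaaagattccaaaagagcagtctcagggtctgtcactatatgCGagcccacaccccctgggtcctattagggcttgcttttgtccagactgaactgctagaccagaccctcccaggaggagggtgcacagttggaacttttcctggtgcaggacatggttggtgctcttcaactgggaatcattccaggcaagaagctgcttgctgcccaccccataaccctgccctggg
Adam20: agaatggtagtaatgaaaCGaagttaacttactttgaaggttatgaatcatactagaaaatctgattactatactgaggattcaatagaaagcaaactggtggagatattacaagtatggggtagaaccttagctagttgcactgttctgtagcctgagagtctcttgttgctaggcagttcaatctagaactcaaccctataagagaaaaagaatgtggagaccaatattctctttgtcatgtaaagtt
Adam25: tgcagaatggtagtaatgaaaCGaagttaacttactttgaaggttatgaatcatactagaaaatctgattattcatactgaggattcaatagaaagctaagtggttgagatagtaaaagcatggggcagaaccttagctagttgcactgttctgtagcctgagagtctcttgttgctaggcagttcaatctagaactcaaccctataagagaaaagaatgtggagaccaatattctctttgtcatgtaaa
Adam29: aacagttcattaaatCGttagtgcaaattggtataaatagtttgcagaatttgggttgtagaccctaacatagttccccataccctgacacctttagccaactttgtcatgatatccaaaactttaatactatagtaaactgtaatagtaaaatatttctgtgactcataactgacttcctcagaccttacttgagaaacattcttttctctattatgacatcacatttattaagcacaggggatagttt

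CpG content separated these promoters. The 250 bases shown hold 29 CpG in Adam10, 23 in Adam17 and 34 in Adamts2, against 1 each in Adamts13, Adam20, Adam25 and Adam29. Counted over 300 bases (the 250 before the start and 50 after it), the 10 ADAMTS promoters had a median of 23.5 CpG, the 7 sheddase-type starts (3 of them in Adam19) 11 and the 2 neural promoters 25. The 11 testis-type promoters had a median of 1, with a highest value of 4 in Adam1a, and all 21263 promoters had a median of 13. The G and C content had medians of 68.0% for ADAMTS, 60.3% for sheddase-type and 39.3% for testis-type promoters.

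Over all promoters, an interval within 1 kb of the start was found for 96.8% of those with 16 or more CpG, 81.0% of those with 6 to 15 and 32.4% of those with 0 to 5. In these bands, 13 of 13, 3 of 3 and 4 of 14 member starts had an interval. The lowest band was split by class. Of the 11 testis-type promoters, all in that band, 1 had an interval, and every CpG-poor start of the other classes had one. The 4 CpG-poor member starts with an interval belonged to Adamts13, Adam1b and Adam19, which had 2 such starts. The CpG-poor starts without an interval were all testis-type. Over all genes, the 5883 promoters with no start interval had a median of 2 CpG. CpG content moved with the classes, and its part in the difference between them was not tested.

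**Figure D3:**
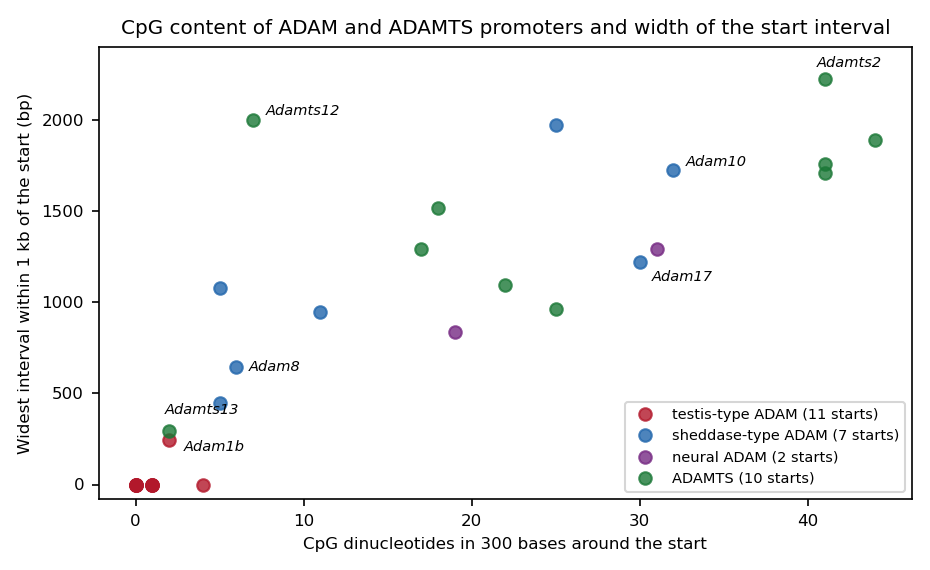
Number of CpG dinucleotides in the 300 bases around each annotated start against the width of the widest interval within 1 kb, for 30 starts of 28 members. Testis-type starts lie at 0 to 4 CpG with widths of 0, except Adam1b at 243 bp, and Adamts12 reaches 2002 bp with 7 CpG.

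Short motifs were searched in the same 300 bases on both strands. The Sp1 motif GGGCGG occurred in 8 of 10 ADAMTS promoters, 5 of 7 sheddase-type starts, 0 of 2 neural and 0 of 11 testis-type promoters, against 46.2% of all promoters. The E-box CANNTG, a loose motif of basic helix-loop-helix factors, occurred in 21 of 30 member starts, against 69.0%. Its form CAGCTG, which myogenic factors bind and which CANNTG includes, occurred in 4 ADAMTS promoters (Adamts2, Adamts9, Adamts12 and Adamts17), 2 sheddase-type starts (Adam17 and 1 start of Adam19) and no testis-type promoter, against 15.6%. The AP-1 motif TGANTCA occurred in 4 testis-type promoters (Adam1b, Adam20, Adam25 and Adam29), of which only Adam1b had a start interval, and in 1 start of Adam19, against 6.99% of all promoters. The promoters of Adam20 and Adam25 were 93.4% identical, so their AP-1 matches are not independent. The TATA box TATAAA was present in 4 of 11 testis-type promoters (Adam29, Adam34l, Adam6a and Adam6b) and in Adamts1, against 12.6%. Those of Adam6a and Adam6b share an unbroken run of 199 bases, so they are not independent either. The motif GGAATG of TEAD factors occurred in 3 member starts, those of Adamts13, Adam1a and 1 of Adam19 (13.6% of all promoters), and the core TGACGT of the cAMP response element in Adamts3 alone (8.49%). A match of letters is a description and not a bound site, and a missing match says only that the letters are not in these 300 bases.

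Of the sheddase-type genes, Adam12 had the most intervals and Adam19 the highest density. Adam12 (chr7:133883199-134225097, gene ID 11489) encodes meltrin alpha, known for its part in myoblast fusion and muscle development. In a gene of 341.9 kb it held 111 intervals, the most of all members and the 99.5th percentile of all protein-coding genes by count. Its density of 29.1 per 100 kb stood at percentile 85.3, and its cover of 14.0% at percentile 77.7. Of the 111 intervals, 100 overlapped the gene body and 32 were at least 600 bp wide. The widest Adam12 interval, 1905 bp, spanned the upper gene end (134223860 to 134225764), and a further 1787 bp interval lay inside the gene at 134113915 to 134115701. Adam19 (chr11:46054502-46147347, gene ID 11492), encoding meltrin beta, held 47 intervals at 35.4 per 100 kb. No stretch of its window longer than 6.09 kb was free of intervals. Its widest interval, 2138 bp, lay beyond the 3′ end, from 46148309 to 46150446. The widest intervals within 1 kb of its 3 annotated starts measured 445, 946 and 1078 bp. The first of these starts was not itself covered.

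The broadly used sheddases Adam10, Adam17, Adam15 and Adam9 had start intervals (for Adam9, at its upper end) of 1221 to 1970 bp and densities of 12.7 to 23.8 per 100 kb. Adam10 (chr9:70678944-70780229, gene ID 11487), which cuts Notch receptors and cadherins, had a start interval of 1723 bp (70678483 to 70680205). It had the lowest density of the class, 12.7 per 100 kb from 18 intervals, with a stretch of 40.0 kb free of intervals. Adam17 (chr12:21323509-21373632, gene ID 11491), the TNF-converting enzyme, had a start interval of 1221 bp (21373083 to 21374303) and 21 intervals at 23.3 per 100 kb. Adam15 (chr3:89339640-89350028), a small gene of 10.4 kb, had a start interval of 1970 bp, the widest of the class, and 8 of its 12 intervals overlapped other genes. Adam9 (chr8:24949611-25017040), a widely expressed sheddase, had 23 intervals at 21.4 per 100 kb. Its widest, 1315 bp, spanned the upper end of Adam9 and also lay within 1 kb of the neighbour Tm2d2.

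The narrowest start or end intervals of the class belonged to Adam8, Adam33 and Adam28. Adam8, a protease of leukocytes, had 647 bp at the start. Adam33, known from airway mesenchyme, had 551 bp at its upper end. Adam28, a lymphocyte and epididymal protease, had 135 bp at its lower end and no interval within 1 kb of its upper end, and its strand is not given. All protein-coding genes with a start interval had a median of 1261 bp, and Adam19 and Adam17 also lay below it. Adam33 had the highest share of its window covered among the members, 20.1%, and its widest interval of 1988 bp lay in the lower flank. Adam28 had the lowest cover of the class, 5.08%. Within the class, start or end intervals thus ranged from 135 to 1970 bp.

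Each of the 3 neural ADAM genes had a start or, in Adam11, end interval of at least 600 bp. Adam22 (chr5:8072347-8368312), the receptor of the secreted synaptic protein LGI1, had 838 bp, Adam23, a further LGI receptor, 1291 bp, and Adam11 1377 bp. Their densities were 9.23, 17.9 and 28.9 per 100 kb. In Adam23 an interval of 1952 bp lay 109 kb inside the gene, at chr1:63553942-63555893, wider than the interval at its start. Neither Adam22 nor Adam23 had a further interval wholly within the 20 kb upstream of the gene.

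Start intervals were widest, by their median, in the ADAMTS genes. The widest interval at the start had a median of 1516 bp over the 19 ADAMTS genes, 1221 bp over the 9 sheddase-type genes, 1291 bp over the 3 neural genes and 429.5 bp over the 8 testis-type genes that had any. It exceeded the median of all genes in 14 ADAMTS, 4 sheddase-type, 2 neural and 0 testis-type genes. In 15 of 19 ADAMTS genes the start interval was the widest of the whole window, against 35.9% of all genes. The same held in 4 of 9 sheddase-type, 0 of 3 neural and 0 of 22 testis-type genes. A start was known for only 10 of the 19 ADAMTS genes, against 17492 of 21887 protein-coding genes. For the others an interval at either gene end counted, so it may lie at the 3′ end. Away from the start, widths lay closer together, with medians of 343 bp in ADAMTS, 402 bp in sheddase-type, 343 bp in neural and 315.5 bp in testis-type gene bodies.

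The procollagen N-proteinases remove the amino-terminal propeptide of fibrillar collagens. Adamts2 (chr11:50602085-50807573, gene ID 216725) had the widest start interval of all members, 2222 bp from 50601609 to 50603830, and 55 intervals at 22.4 per 100 kb. Adamts14 (chr10:61197112-61273419) had 1890 bp at the start and 34 intervals at 29.2 per 100 kb. Adamts3 (chr5:89673841-89883668), which also acts on the lymphatic growth factor VEGF-C, had 1757 bp at the start but 10.4 intervals per 100 kb and 3.46% of its window covered. The 3 genes were thus alike in a wide start and differed by 2.81-fold in the density of sites around it.

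The proteoglycanases cut aggrecan and versican, and all 7 had a start or end interval of at least 960 bp. Adamts4 (chr1:171250129-171262267) had the highest density of the ADAMTS genes, 38.4 per 100 kb, and 16 of its 20 intervals overlapped other genes in a crowded stretch with 5 neighbours. Its widest interval, 1530 bp, lay beyond the upper end of the gene. Adamts8, a neighbour of Adamts15 at 20.1 kb, followed with 32.6, and the pair shared 5 intervals. Adamts15 had 17.4, and their end intervals measured 1397 and 1395 bp. Adamts1 (chr16:85793827-85803113) and Adamts5 (chr16:85858157-85901125), the main aggrecanase of mouse cartilage, lie 55.0 kb apart with 12 intervals between them. Adamts1, a short gene of 9.29 kb, had 13 intervals at 26.4 per 100 kb and 1516 bp at the start, while Adamts5 had 12 at 14.5 and 1212 bp at its upper end. Adamts9 and Adamts20, relatives of the nematode gene gon-1 with roles in morphogenesis and pigmentation, had 39 and 41 intervals at 18.4 and 20.1 per 100 kb. In Adamts9 the widest interval, 1779 bp, lay 74.2 kb inside the gene, at chr6:92868445-92870223, and the start interval measured 960 bp.

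The remaining ADAMTS genes spanned the range of the class. Adamts12 (chr15:11064773-11349232), which with Adamts7 cuts cartilage oligomeric matrix protein, held 82 intervals at 25.3 per 100 kb, the most of any ADAMTS gene, with 2002 bp at the start. Adamts7 had 16 intervals at 20.7 and 1825 bp at its lower end. Adamts13 (chr2:26973361-27009625), the plasma protease of von Willebrand factor, had the narrowest start interval of the class, 293 bp from 26973230 to 26973522. The widest interval in its window, 2047 bp, lay in the lower flank.

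Of the orphan ADAMTS genes, Adamts16 had 42 intervals at 27.3 per 100 kb with an end interval of only 400 bp, and Adamts10, a gene of connective tissue growth and fibrillin, had 14 at 20.0 with 1958 bp at its lower end. Adamts6, Adamts17 and Adamts18 had 42, 54 and 30 intervals at 16.8, 15.3 and 15.6 per 100 kb, and end or start intervals of 1309, 1294 and 1092 bp. Adamts19 (chr18:58835992-59053682) combined the lowest density of the class, 7.37 per 100 kb, and an empty stretch of 55.1 kb with an end interval of 2098 bp, at percentile 95.2 of all genes.

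**Figure D4:**
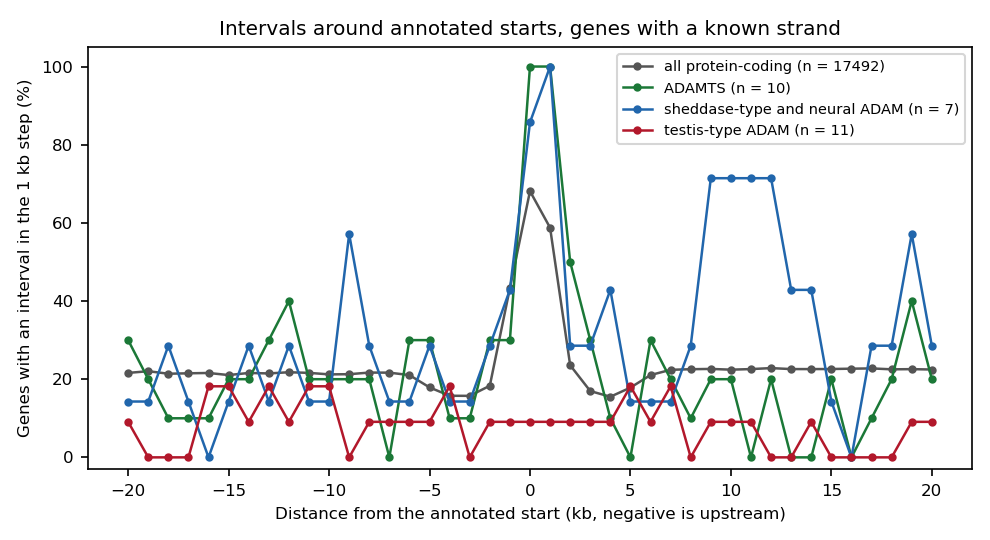
Percent of genes with an interval in each 1 kb step from 20 kb upstream to 20 kb downstream of the annotated start, for genes with a known strand. At the start step all 10 ADAMTS genes, 6 of 7 sheddase-type and neural genes and 1 of 11 testis-type genes had an interval, against 68.1% of all genes.

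In the steps 9 to 12 kb downstream, 5 of the 7 sheddase-type and neural genes had an interval in each step, against 22.4 to 22.8% of all genes and at most 2 of 10 ADAMTS genes. These are 7 genes, and the steps were picked after the values were seen. Along genes of at least 50 kb, the first 25% of the body held 27.3% of 308 intervals in 8 ADAMTS genes and 34.8% of 112 in 5 sheddase-type and neural genes, against 26.3% over all genes.

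The testis-type genes ranged from loci without any interval in the window, through loci with 1 to 3, to loci with more. The 8 genes with none in their window were Adam6a, Adam25, Adam26a, Adam26b, Adam29, Adam34, Adam34l and Adam39, all known from the testis. Of the 13 testis-type genes on chromosome 8, 7 had none, and of the 9 elsewhere 1 had none. Adam26b, Adam26a, Adam34l and Adam34 lay together in a stretch of 353.0 kb free of intervals (chr8:43498112-43851074), and 256 of 323450 stretches between neighbouring intervals were longer. Adam34 lies within the annotated body of Adam34l. Adam6a and Adam6b, which lie in the immunoglobulin heavy chain locus and serve male fertility, shared a stretch of 493.7 kb (chr12:113488119-113981776). Adam25 lay with Adam24 in a stretch of 121.4 kb, Adam39 with Adam20 in 78.1 kb and Adam29 alone in 125.3 kb. The treatment of reads that match several places is not given in the sources used, and its part in these zeros was not tested. The promoters of Adam20 and Adam25 were 93.4% identical over 304 aligned positions, those of Adam26b and Adam34l 70.8%, and those of Adam1a and Adam1b 52.6%, against a median of 48.6% over 432 pairs of member promoters. The promoters of Adam6a and Adam6b shared an unbroken run of 199 bases, which holds every paired position of their alignment of 401. The other positions face gaps, because the stretches are offset. Their identity of 49.6% over the whole alignment therefore cannot be set against that median.

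A further 5 testis-type genes had 1 to 3 intervals and none at the start. Adam24, whose protein acts in the sperm membrane block to polyspermy, had 3, all in the lower flank. Adam4 had 2, and Adam20, Adam21 and Adam6b had 1 each. The Adam6b interval of 308 bp ended 1447 bp before the start, the nearest beyond 1 kb among testis-type genes with a known start. On the other side of that limit, the Adam1b interval of 243 bp lay 273 bp from the start.

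The testis-type genes with the highest densities lay within or beside other genes. Adam30 (chr3:98160634-98164169), next to the Notch receptor gene Notch2, had 18 intervals at 41.3 per 100 kb, the highest density of all 53 members. Only 1 of them overlapped Adam30 itself, 4 overlapped Notch2, and the one at its lower end measured 384 bp. Adam1a and Adam1b, which encode forms of the sperm protein fertilin alpha, had 32.5 and 27.7 per 100 kb, and 13 of 14 and 12 of 12 of these intervals overlapped other protein-coding genes. The interval nearest to the start of Adam1a lay 2332 bp away. Over the testis-type class 42.3% of the intervals counted overlapped another protein-coding gene, against 16.6% in sheddase-type, 6.10% in neural and 7.02% in ADAMTS genes. The other gene could itself be a member, and an interval in several windows counted in each. This share was not computed over all genes. With intervals inside another gene left out, the median density was 2.14 per 100 kb in testis-type genes and 11.0 over all genes. With all intervals it was 3.53 and 18.2. The testis-type median relative to all genes was thus nearly the same, 0.195 without these intervals and 0.194 with them.

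The genes Adam18, Adam3, Adam5 and Adam32 form a row that ends at the sheddase gene Adam9 on chromosome 8. Adam3 is known to be needed for the passage of sperm into the oviduct. Their densities were 12.4, 11.2, 8.74 and 9.82 per 100 kb, below the 21.4 of Adam9 and the 18.2 of all genes. With the gene body alone they were 16.5, 6.10, 7.20 and 9.75, against 19.3 in Adam9 and 18.6 over all genes. Adam18 thus lay closer to both in its body. Intervals overlapping another protein-coding gene were 1 of 14, 7 of 10, 4 of 12 and 3 of 15, against 11 of 23 in Adam9. The longest stretch free of intervals in each window was 20.7 to 43.8 kb for these 4 genes and 14.7 kb for Adam9. End intervals measured 117 bp in Adam18, 475 bp in Adam3, 1151 bp in Adam5 and 767 bp in Adam32. The Adam32 interval, from 24948235 to 24949001, crossed the upper end of Adam32 into the gap of 0.692 kb to Adam9, and it counted for both genes. No strand was used for these 5 genes, so their start ends are not given. Adam2 on chromosome 14, encoding fertilin beta, had 14 intervals at 15.5 per 100 kb, with 696 and 584 bp at its ends. Adam7, an epididymal gene, had 6 at 7.86, with 256 bp at its upper end.

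**Figure D5:**
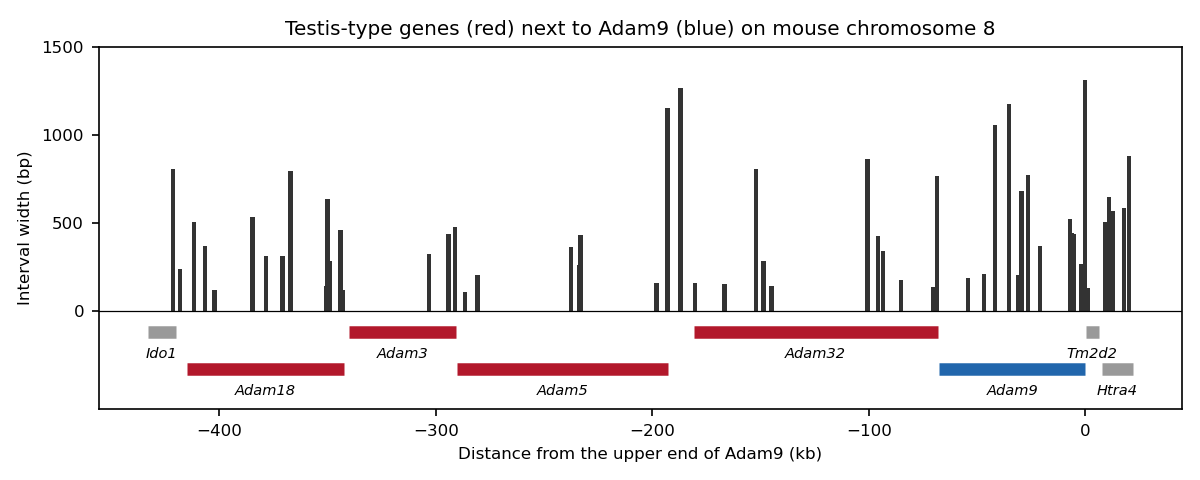
Width of each interval against its distance from the upper end of Adam9, over the row of Adam18, Adam3, Adam5, Adam32 and Adam9, with gene bodies drawn below. The tallest bar, 1315 bp, stands at the upper end of Adam9, and long stretches without bars lie over Adam3, Adam5 and Adam32.

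Genes that work with these proteases were read by the same rule, beside the shares of all genes of 72.7% at any width and 64.6% at 600 bp or more. All 6 inhibitor genes had a start interval, with 1259, 1673, 1103 and 458 bp at Timp1, Timp2, Timp3 and Timp4, which encode tissue inhibitors of metalloproteases. Timp3, the form that also blocks ADAM17 and aggrecanases, had 27 intervals at 30.3 per 100 kb, and A2m, a plasma inhibitor, had 1 interval. Of 13 genes for trafficking and activation of ADAM10 and ADAM17, 12 had a start interval, and Tspan10 had none. Rhbdf1 and Rhbdf2, encoding the iRhom carriers of ADAM17, had 1667 and 221 bp. Of 17 genes of shed substrates 16 had one, with Nrg1 as the exception, and of 13 ADAMTS substrates 12, with Vwf as the exception. Versican (Vcan) had 1499 bp, and Acan, the aggrecan gene, had 1003 bp and 10.8 intervals per 100 kb, the lowest density of the substrate list. All 6 ADAMTS-like genes had a start interval of at least 600 bp.

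Partners of testis ADAMs were read in the same way. Of 8 listed sperm partner genes 7 were matched, and 5 had a start interval, near the 72.7% of all genes, of which 3 measured at least 600 bp (Clgn, Calr3 and Ace). Tex101 and Ly6k, whose products act in ADAM3 maturation, had none. All 5 partner genes of neural ADAMs had a start interval, from 229 bp at Dlg4 to 1514 bp at Lgi2.

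Cell type markers were read by the same rule, with shares over all genes of 72.7% at any width and 64.6% at 600 bp or more. All 11 fibroblast markers had a start interval of at least 600 bp. Col1a1, Col1a2 and Col3a1 stand in this list and in that of ADAMTS substrates. Of 7 male germ cell markers, 3 had a start interval (Dazl, Prm1 and Acr) and only that of Dazl, 703 bp, reached 600 bp. Start intervals were present at 2 of 4 macrophage, 3 of 4 neuron, 3 of 4 epithelial and 2 of 3 endothelial markers, and absent at Adgre1, Ptprc, Rbfox3, Krt5 and Pecam1. These lists hold 3 or 4 genes each, and such counts cannot be set apart from the share of all genes. Accessibility at a start does not measure expression, and whether other cells were present was not tested.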

How the data were processed

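ATAC-seq libraries of 3 groups with 2 libraries each were made with the Omni-ATAC protocol, per the labels. The submitters' processing notes name MACS2, BWA, DESeq2 and the build GRCm38.p6 without their roles. Consensus peaks were annotated by the authors with HOMER annotatePeaks and GENCODE genes, per the file headers. The deposited peak score is 0 in every row and was not used, and the number of columns with a value per library is 0, so no comparison of groups was made. The steps that called and joined peaks are not given in the sources used.

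Intervals (1-based) were counted where they overlapped a gene body of the RefSeq table (GRCm38.p6), extended by 20 kb, by at least 1 bp. Start sites and strands came from the RefSeq promoter table, which matched 28 of 53 members and 17492 of 21887 protein-coding genes. Elsewhere either gene end was used. The partner gene Pdilp was not matched. Gene classes, lists and the rule for named genes (all members, with the densest, the sparsest and the exceptions per class in full) were chosen with earlier results of these data known. The planned motif search in proteins was not run. Counting was tested on simulated data. Alternatives covered distances, flanks, widths and background. Python 3.11.15, numpy 2.4.6, pandas 2.3.3, scipy 1.17.1, Biopython 1.88 and matplotlib 3.10.9 were used.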

Additional observations from a re-analysis of the deposited data

How the results depend on the processing

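Under other distances, flanks, widths and backgrounds, 54 values of the class shares, densities and widths stayed within the exact interval of the share or within 1.5 times of the reported value. For shares this is a weak check, because the exact intervals are wide. They reached down to 29.2% for the 3 neural genes and 66.4% for the 9 sheddase-type genes. No share changed sides of the value of all genes, nor did the testis-type, sheddase-type or ADAMTS density. The neural median density relative to all genes, 0.981 over 3 genes, changed sides: it was 1.11 for the gene body alone, 1.10 with flanks of 5 kb, 1.03 with intervals of at least 300 bp and 1.63 without intervals inside another gene. The median start width of the sheddase-type genes, 1221 bp, lay below the 1261 bp of all genes and above their 1025 bp once genes without a start interval counted as 0. The 6 planned class values that moved, and 1 more chosen after seeing the data, all concerned the testis-type genes. Their share with a start interval was 13.6% with intervals of at least 600 bp and, chosen after seeing the data, 9.09% among genes with a known strand. Their median density relative to all genes, 0.194, was 0 for the gene body alone and for flanks of 5 kb, 0.112 with intervals of at least 600 bp and 0.486 from summed counts over summed windows. Their median start width was 0 with genes lacking an interval included. The ADAMTS ratio of 1.10 was 1.01 with olfactory, vomeronasal and predicted genes left out of the background. Depth is unknown, so weak sites may be missing, and width is the extent of joined peaks and not a signal. No paired analysis was possible because no column holds a value per library, and leaving out libraries was not run for the same reason.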
